A study of Pinellia ternata with 6 samples.

Results

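The unigenes described here were listed at exactly 0 in every T2 line sample of *Pinellia ternata* and reached at least 5 FPKM in every T2Plus line sample. They were chosen by these values alone: isoform values were summed per unigene, the cut was applied to the sums, and 3 further unigenes that met it were left out by name. Of 62591 unigenes in the table, 262 were members, from 261 components of the assembly. FPKM divides the reads of a transcript by its length and by the depth of the library. Since the same contrast chose the members, their levels in the 2 lines are a description, and no test between the lines is read as a result for them.

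Total RNA was sequenced from seedlings collected 30 days after planting, in 3 samples of the T2 line and 3 of the T2Plus line. The parent was the T2 line, an octoploid (8x, 2n = 104) propagated by tissue culture from 1 selected plant. The T2Plus line is its colchicine-doubled derivative (16x, 2n = 208), so that the comparison rests on 1 doubled line. The paper describes the 3 samples of a line as biological replicates. It also states that seedlings of a group were mixed before grinding, and does not say whether the samples of a line came from separate mixes, so the p-values below rest on a spread between samples that may be technical. In whole seedlings, fewer cells of a type and less RNA per cell cannot be told apart. Of 39 measured unigenes in the lists of the paper's enrichment table on photosynthesis and pigments, 37 were above 0 in all 6 samples.

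A unigene is the unit of a *de novo* assembly, in which transcripts are rebuilt from reads without a genome. The assembler joins overlapping reads into components, splits each component into gene-level units and splits these into isoforms. Chromosome doubling copies the chromosomes that a plant already has, so a doubled line starts with the gene set of its parent in more copies. In polyploids, near-identical copies of a gene can be assembled as separate unigenes, and reads that match several of them are divided between them by the counting program. A short or weakly covered unigene can be listed at 0 when no read falls on it.

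Most members lay toward the lower end of the levels that the rule allowed. Their lowest T2Plus value had a median of 8.14 FPKM, with quartiles of 6.05 and 12.8 FPKM, and ranged from 5.0 to 219 FPKM. By sample, the median level was 10.8 FPKM in T2Plus replicate 1, 11.9 FPKM in replicate 2 and 13.1 FPKM in replicate 3. Of the 262 members, 102 reached 10 FPKM in every T2Plus sample, 29 reached 20 FPKM, 7 reached 50 FPKM and 2 reached 100 FPKM. Together the members held 0.839% to 0.886% of the summed FPKM of a T2Plus sample.

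**Figure D1:**
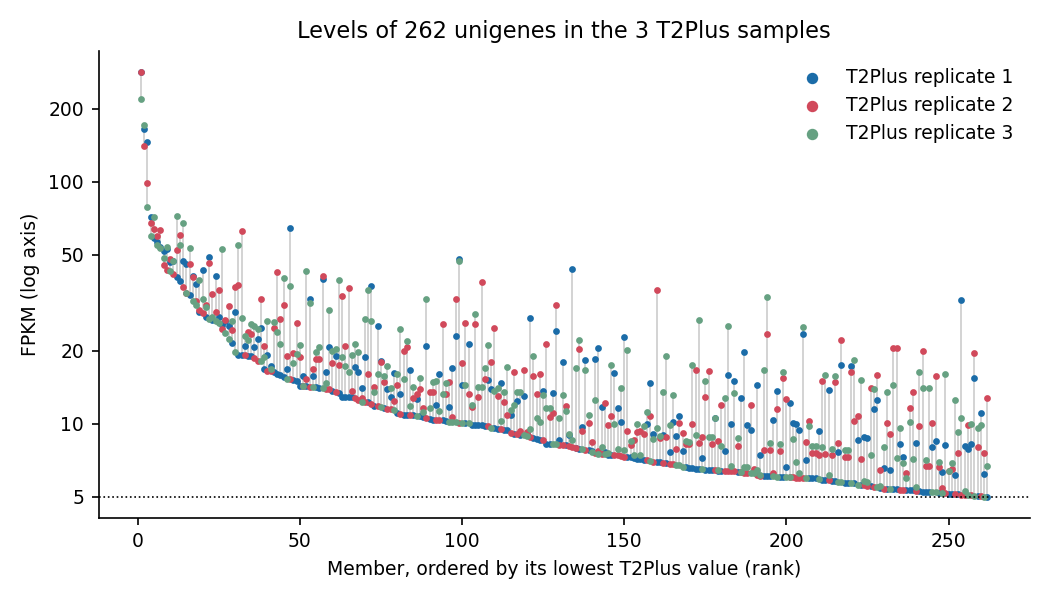
Each column is 1 of the 262 members, ordered along the x axis by its lowest T2Plus value, and the points are its FPKM in the 3 T2Plus samples on a log axis, joined by a grey line from the lowest to the highest. The dotted line marks 5 FPKM; all T2 values were 0 and are not drawn. A few members lie above 50 FPKM at the left, while most columns lie between 5 and 20 FPKM with uneven heights.

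The highest member was TRINITY_DN33999_c0_g1, with 284, 283 and 219 FPKM in T2Plus replicates 1, 2 and 3. TRINITY_DN66501_c0_g1 followed with 166, 141 and 171 FPKM, and it was the only one of the 10 highest members that the paper's enrichment table placed in a list. TRINITY_DN4691_c4_g1 reached 147, 98.8 and 78.4 FPKM. These 3 were above 78 FPKM in every T2Plus sample, and replicate 3 was the lowest for the first and the third.

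TRINITY_DN31453_c1_g1 was at 71.5, 67.4 and 59.9 FPKM and TRINITY_DN521_c1_g1 at 58.4, 63.9 and 71.4 FPKM, so their order reversed between replicates 1 and 3. TRINITY_DN18230_c1_g1 was even across samples, at 56.4, 59.8 and 54.9 FPKM. TRINITY_DN1414_c0_g1 was at 53.8, 63.0 and 53.3 FPKM. The ranges of the remaining 3 overlapped with each other. TRINITY_DN2868_c0_g1 was at 51.9, 45.1 and 48.3 FPKM, TRINITY_DN874_c0_g1 at 52.6, 43.2 and 53.7 FPKM and TRINITY_DN21744_c1_g1 at 46.7, 47.9 and 43.0 FPKM. The coefficient of variation (CV, the SD over the mean of the 3 samples) of these 10 members lay between 0.0442 and 0.324.

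At the other end, the rule cut through a continuous range, and it depended on each T2Plus sample: with 1 of the 3 left out, 554 to 631 unigenes met it. Just inside it, TRINITY_DN142560_c0_g1 was at 5.0, 12.7 and 6.69 FPKM, TRINITY_DN10888_c2_g1 at 6.17, 7.58 and 5.004 FPKM, and TRINITY_DN27526_c0_g1 at 11.0, 5.01 and 9.85 FPKM. Just outside it, TRINITY_DN59925_c0_g1 was at 7.01, 4.996 and 7.15 FPKM, TRINITY_DN187828_c0_g1 at 7.92, 4.996 and 5.17 FPKM, and TRINITY_DN30166_c0_g3 at 8.15, 5.73 and 4.99 FPKM. The T2 side had near misses of another kind, with a single T2 sample slightly above 0. TRINITY_DN3580_c0_g2 had 50.3, 46.4 and 51.9 FPKM in the T2Plus line and 0.224 FPKM in T2 replicate 3. TRINITY_DN10440_c1_g2 had 22.5, 19.3 and 18.6 FPKM and 0.213 FPKM in T2 replicate 1, and TRINITY_DN21947_c0_g2 had 9.29, 11.2 and 10.4 FPKM and 0.112 FPKM in T2 replicate 2.

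How often a unigene was listed at 0 in the whole T2 line depended on its level. Of 9461 unigenes with at least 5 FPKM in each T2Plus sample, 265 were at 0 in all 3 T2 samples, counting the 3 left out, a further 162 were at 0 in 2 T2 samples and 259 in 1. Where the lowest T2Plus value was 5 to 7 FPKM, 106 of 1510 unigenes (7.02%) were at 0 in all T2 samples. The share was 3.77% at 7 to 10 FPKM, 3.14% at 10 to 20 FPKM, 0.904% at 20 to 50 FPKM and 0.418% at 50 FPKM or more.

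The mirrored rule, 0 in every T2Plus sample and at least 5 FPKM in every T2 sample, found 129 unigenes among 8769. Its share also fell with the level, from 3.85% at 5 to 7 FPKM to 0.292% at 50 FPKM or more, and stayed below the members' share in each of the 5 bands. A count of this kind depends on what 1 read is worth in each sample. For a transcript whose single read was worth 10 FPKM in T2Plus replicate 1, it was worth 13.0 and 14.3 FPKM in T2Plus replicates 2 and 3 and 13.0, 8.72 and 12.7 FPKM in T2 replicates 1, 2 and 3. A value of 5 FPKM in T2 replicate 2 thus took more reads than in any other sample, and the part of this in the difference between the 2 counts was not tested. By the paper's counts of clean reads, T2 replicate 2 was also the deepest of the libraries.

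**Figure D2:**
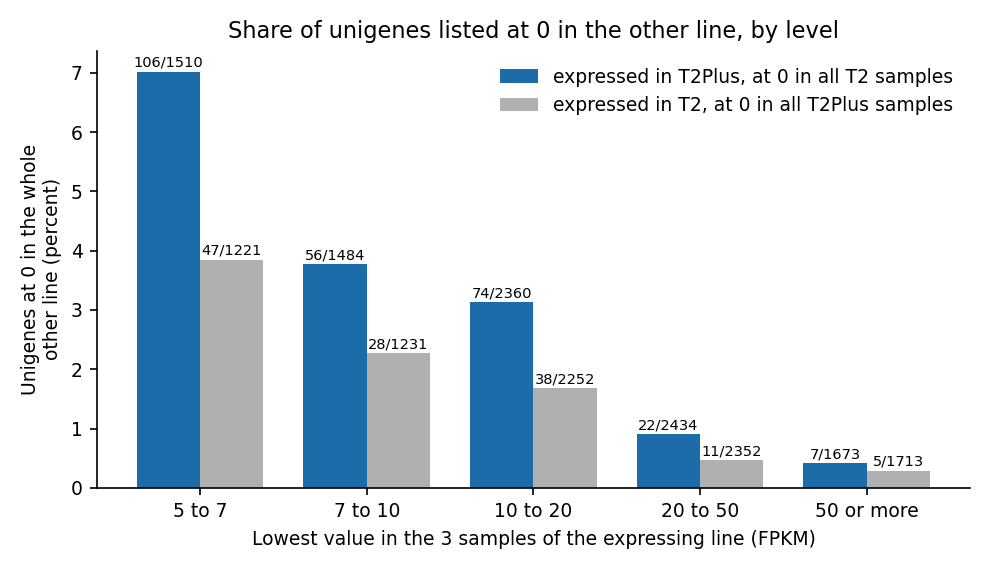
Bars give the percent of unigenes listed at 0 in all 3 samples of the other line, by the lowest value in the 3 samples of the expressing line (FPKM), with the counts above each bar. The blue bars hold the members and the 3 unigenes left out; both series fall as the level rises, from 7.02% to 0.418% and from 3.85% to 0.292%.

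The values of many members were whole multiples of a small step, taken here as 1 read. In these libraries, a transcript of a given length gains a fixed FPKM for each read, so transcripts with few reads take values at whole multiples of that worth. The ratio of this worth between samples was read from value pairs that recurred exactly in the isoform table, members included. It changed with the worth of a read in T2Plus replicate 1, taken here to follow transcript length, which was not known. For a read worth 1 FPKM in T2Plus replicate 1, it was 1.19 FPKM in replicate 2 and 1.15 FPKM in replicate 3. For a read worth 20 FPKM in replicate 1, it was 26.4 and 30.2 FPKM. The fitted curves departed from the recurring pairs by 0.125% and 0.130% (root mean square) for replicates 2 and 3.

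By these curves, 120 of the 262 members (45.8%) had 3 T2Plus values that equalled 1 to 4 reads in each sample within 2%. For 118 of the 120, the misfit was at most 0.5%. The curves replaced 1 fixed ratio between samples, which had been planned, after the data were seen. With that fixed ratio 5 members (1.91%) were resolved, beside 2.29% of like unigenes. By the curves, 3.47% of 8569 unigenes of the same range of T2Plus means that were above 0 in all T2 samples met the condition. These lay higher than members, with 1492 of them at 50 FPKM or more. By the lowest T2Plus value, the condition was met by 5.31% of them at 5 to 7 FPKM and 4.34% at 7 to 10 FPKM. At 10 to 20, 20 to 50 and 50 FPKM or more, it was met by 3.19%, 3.11% and 2.21%. Among unigenes at 0 in some T2 samples only, it was met by 89 of the 162 with 2 T2 samples at 0 (54.9%) and by 92 of the 259 with 1 (35.5%). The share among members fell with the level, from 61.9% at 5 to 7 FPKM to 41.8% at 7 to 10 FPKM, 37.0% at 10 to 20 FPKM and 22.7% at 20 to 50 FPKM, and it was 0 of 7 members at 50 FPKM or more. In the mirrored set, resolved from the T2 values, it was 62 of 129 unigenes (48.1%).

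The 120 resolved members held 3 to 11 reads over the 3 T2Plus samples together, with a median of 5. The commonest pattern was 1 read in each sample, in 26 members, and 93 members held at most 6 reads in all. In 94 members, at least 1 of the 3 T2Plus values was a single read. For these transcripts 1 read was worth a median of 7.21 FPKM in T2 replicate 1, 4.88 FPKM in replicate 2 and 7.41 FPKM in replicate 3. A T2 level equal to the mean T2Plus level would have come to a median of 5.40 reads over the 3 T2 samples together, with a range of 3.34 to 12.4. The lower end of that range was set by the rule, which needs at least 1 read in each T2Plus sample, so nothing is read from it against the 3 reads that a count of 0 over the 3 T2 samples allows for counting error only.

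A high FPKM did not always mean many reads. TRINITY_DN17923_c1_g1, at 34.2, 45.9 and 53.3 FPKM, fitted 1 read in each T2Plus sample. This fit lay near the upper end of the replicate 3 curve, at 35.5 FPKM in replicate 1, where only 2 rows in recurring pairs carried it. The curve was read from all isoform rows, members included, and the ratio tracked there equals that of this member's own values. Its fit is therefore no independent evidence of its number of reads. TRINITY_DN218019_c0_g1, at 43.2, 28.7 and 32.9 FPKM, fitted 2, 1 and 1 reads, and TRINITY_DN920_c6_g1, at 47.2, 41.4 and 46.8 FPKM, fitted 3, 2 and 2 reads. All 3 were among the 29 members that reached 20 FPKM in every T2Plus sample. TRINITY_DN142560_c0_g1, the lowest member, fitted 1, 2 and 1 reads. Transcripts with the same number of reads and the same worth of a read took the same values: TRINITY_DN206090_c0_g1 and TRINITY_DN260081_c0_g1 were both at 5.72, 7.31 and 7.77 FPKM, and TRINITY_DN193585_c0_g1 and TRINITY_DN69732_c0_g2 both at 5.94, 7.60 and 8.10 FPKM.

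**Figure D3:**
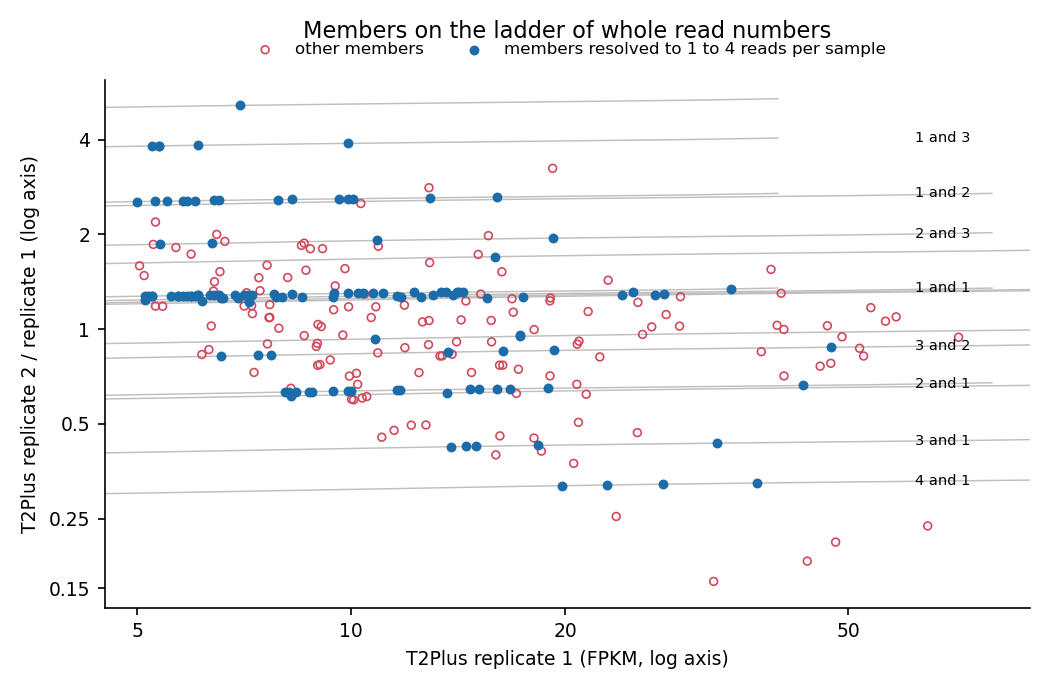
Each point is a member with its T2Plus replicate 1 value on the x axis (FPKM, log axis) and the ratio of replicate 2 to replicate 1 on the y axis (log axis). Grey lines give the ratio for 1 to 4 reads in each of the 2 samples, some labelled with the reads in replicates 1 and 2; filled points are the 120 members resolved over all 3 samples and lie on the lines, and open points are members that were not resolved. The x axis ends at 90 FPKM, so the 3 highest members are not drawn.

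The other 142 members were not resolved to 1 to 4 reads in each sample, and their number of reads is unknown. Their lowest T2Plus value had a median of 9.86 FPKM, against 6.58 FPKM for the resolved members. The 10 highest members were all among them.

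Agreement among the 3 T2Plus samples was looser for members than for unigenes present in both lines. The median CV was 0.261 over members, with quartiles of 0.157 and 0.439, and 0.0979 over 7201 unigenes with at least 5 FPKM in all 6 samples and the same range of T2Plus means. The gap held within each level band, at 0.315 against 0.212 for 5 to 7 FPKM, 0.237 against 0.113 for 10 to 20 FPKM and 0.101 against 0.0619 for 50 FPKM or more. Resolved members had a median CV of 0.292 and the others 0.231. In 91 members the highest T2Plus value was at least 2 times the lowest, and in 29 at least 3 times.

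**Figure D4:**
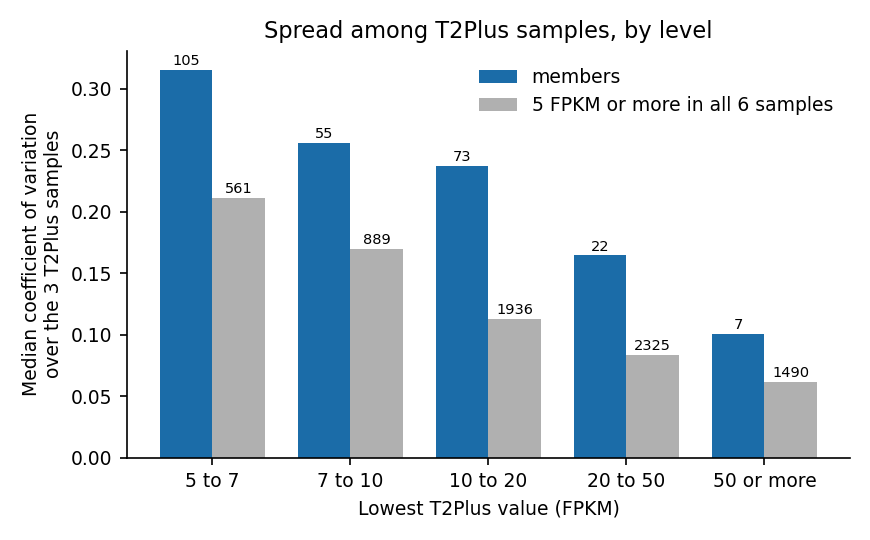
Bars give the median CV over the 3 T2Plus samples by the lowest T2Plus value (FPKM), for the members (blue) and for unigenes with at least 5 FPKM in all 6 samples (grey), with the number of unigenes above each bar. The members' bar is the higher in every band, and both fall with the level.

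Replicate 3 was the highest T2Plus sample for 112 members (42.7%) and replicate 1 the lowest for 119 (45.4%). The 7376 unigenes with at least 5 FPKM in all 6 samples leaned the same way, with 45.7% highest in replicate 3 and 40.1% lowest in replicate 1. The most even members were TRINITY_DN17265_c1_g1 at 9.07, 9.25 and 8.89 FPKM, TRINITY_DN22022_c0_g1 at 6.36, 6.50 and 6.24 FPKM, and TRINITY_DN12515_c0_g1 at 17.3, 16.5 and 16.8 FPKM. The most uneven were each raised in 1 sample. TRINITY_DN44065_c0_g1 was at 43.8, 8.01 and 8.57 FPKM, TRINITY_DN173247_c0_g1 at 6.97, 35.8 and 9.64 FPKM, and TRINITY_DN8515_c0_g1 at 32.3, 5.10 and 10.6 FPKM. TRINITY_DN173247_c0_g1 fitted 1, 4 and 1 reads.

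All 262 members passed the filter on low values (at least 1 FPKM in 3 of the 6 samples) and all were called higher by limma, a linear-model test fitted across all unigenes (adjusted p no higher than 0.05, change no smaller than 2-fold), as 7.22% of the 28536 unigenes tested were. The rule used this contrast, so nothing is read from that count.

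Few members could be named. Of the 262, 7 stood in any of the 286 GO and KEGG lists of the paper's enrichment table, beside 362 of all 62591 unigenes. Of the 2061 unigenes that limma called higher, members included, 109 stood there. The study drew these lists from differences between these same samples, so a member's presence in them is no independent evidence. Over all lists, limma called 109 of 355 tested unigenes higher and 217 lower, and the counts of single groups below are to be read beside these and the 7.22% and 6.30% of all unigenes tested. The part of the paper's annotation table at hand held 2 members, TRINITY_DN37215_c1_g1 and TRINITY_DN73775_c0_g1, both with no entry in any database. The lists give a role but no gene name. With no entry for either, that table could not show whether members matched proteins from outside the green plants or from transposons.

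Of the 7, 4 stood in transport lists. TRINITY_DN50030_c0_g1 was listed under sulfate transport, the route by which plants take up sulfur, and was at 15.7, 16.8 and 14.2 FPKM. TRINITY_DN15045_c0_g1 was listed under potassium ion transport and regulation of stomatal movement, in which potassium flux sets the turgor of guard cells, and was at 13.0, 16.7 and 8.95 FPKM. These last values fitted 2, 2 and 1 reads. TRINITY_DN45994_c0_g1, under potassium ion transport and response to nematode, was at 9.04, 6.98 and 8.68 FPKM, and TRINITY_DN100198_c0_g1, under transmembrane transport, was at 25.3, 11.8 and 16.1 FPKM with replicate 1 well above the others. The transport lists held 58 measured unigenes, of which limma called 16 higher, these 4 members included, and 36 lower in the T2Plus line. The 4 members were the ones at 0 in all T2 samples.

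Another 2 belonged to phenylpropanoid lists, the pathway that leads from phenylalanine to lignin and related compounds. TRINITY_DN36788_c0_g1 stood there and under suberin and very long-chain fatty acid synthesis, which build the water barrier of roots and wounded tissue, and was even at 7.68, 8.37 and 7.68 FPKM. TRINITY_DN42868_c0_g1 was at 21.4, 13.3 and 10.04 FPKM. The phenylpropanoid lists held 9 measured unigenes, 4 called higher, both members included, and 4 called lower. The last of the 7 was TRINITY_DN66501_c0_g1, under the light reaction of photosynthesis, in which light energy is turned into chemical energy, at 141 to 171 FPKM. Of the 39 photosynthesis and pigment unigenes, limma called 5 higher, this member included, and 30 lower. The lists on carbohydrates and cell walls, on DNA and cell division and on oxidation-reduction held 59, 24 and 8 measured unigenes and no member, in groups where few could fall, since all lists together held 7 members among 362 measured unigenes.

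Sister unigenes, the other units of a member's component, were not chosen by the rule. Another unigene shared the component for 24 members (9.16%), beside 5.23% of all unigenes. In 1 component both were members, TRINITY_DN17265_c1_g1 and TRINITY_DN17265_c1_g3. The other 22 members had 24 sisters, of which 14 were above 0 in all 6 samples, 18 were above 0 in at least 1 T2 sample, 4 were at 0 in every sample and 2 were at 0 in the T2 line alone. The counting program can divide reads between sisters, so a member and its sister are not independent measurements.

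The limma test found 3 of the 17 sisters that passed the filter higher in the T2Plus line and 0 lower, where 7.22% of all unigenes tested were called higher and 6.30% lower. Of the 3, TRINITY_DN27035_c1_g1 was at 0 in every T2 sample and passed the filter through its T2Plus values alone, so nothing is read from its call. The same holds for TRINITY_DN93838_c1_g1, which was at 0 in T2 replicate 2 and needed its T2Plus values to reach 3 samples. With no filter, its adjusted p by limma was 0.0641. The count of 3 is therefore a description. At an unadjusted p of at most 0.05 there were 4 higher and 1 lower. With any 1 of the 3 T2Plus replicates left out, 1 sister was called higher, and it was TRINITY_DN27035_c1_g1 each time. TRINITY_DN93838_c1_g1 was at 2.62, 0 and 1.95 FPKM in the T2 line and 8.08, 9.63 and 18.4 FPKM in the T2Plus line, a difference of 2.49 (SE 0.58) on the log2(FPKM + 1) scale with an adjusted p of 0.0313, and its member TRINITY_DN93838_c1_g3 was at 10.4, 13.5 and 11.6 FPKM. TRINITY_DN12410_c0_g3 went from 7.69, 2.90 and 8.83 FPKM to 18.5, 20.1 and 16.7 FPKM, a log2 difference of 1.48 (SE 0.37) with an adjusted p of 0.0384, and its member TRINITY_DN12410_c0_g1 was at 15.8, 14.4 and 14.3 FPKM. In both components the T2Plus samples of the sister lay above all of its T2 samples. TRINITY_DN27035_c1_g1, the third, was listed at 0 in the T2 line and at 3.79, 6.76 and 3.09 FPKM in the T2Plus line, below its member TRINITY_DN27035_c1_g2 at 7.44, 9.86 and 7.55 FPKM.

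Among the most strongly expressed sisters, most did not pass the test. TRINITY_DN373_c0_g3 was at 409, 569 and 423 FPKM in the T2 line and 369, 381 and 426 FPKM in the T2Plus line, with overlapping ranges. Its neighbour TRINITY_DN373_c0_g1 was at 56.5, 43.1 and 55.4 FPKM and then 83.1, 88.4 and 87.2 FPKM, a log2 difference of 0.74 (SE 0.13) with an adjusted p of 0.0112 that lay under the fold limit. The member TRINITY_DN373_c0_g2, at 8.51, 15.7 and 5.21 FPKM, made up 2.01% of its component's T2Plus total.

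Of the 10 highest members, only TRINITY_DN874_c0_g1 and TRINITY_DN1414_c0_g1 had a sister, and both sisters were present in both lines. TRINITY_DN874_c0_g2 was at 33.0, 51.4 and 23.7 FPKM in the T2 line and 31.7, 37.9 and 43.5 FPKM in the T2Plus line, close to its member's 43.2 to 53.7 FPKM there. The component total was 33.0, 51.4 and 23.7 FPKM in the T2 line and 84.2, 81.0 and 97.2 FPKM in the T2Plus line, and the member made up 56.9% of the latter. TRINITY_DN1414_c0_g2 was at 10.4, 10.6 and 9.78 FPKM in the T2 line and 8.40, 7.12 and 9.02 FPKM in the T2Plus line, while its member TRINITY_DN1414_c0_g1 held 87.4% of the component's T2Plus total. The T2Plus values of the latter sister lay below its T2 values in every sample, with an adjusted p of 0.351 by limma.

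TRINITY_DN2234_c0_g4 and TRINITY_DN56143_c0_g2 were of the same kind, at 12.6, 12.0 and 10.6 against 10.5, 8.56 and 9.32 FPKM and at 5.18, 5.73 and 6.14 against 3.03, 2.73 and 3.86 FPKM. Their members TRINITY_DN2234_c0_g5, at 20.9, 10.5 and 32.9 FPKM, and TRINITY_DN56143_c0_g1, at 9.91, 11.7 and 11.9 FPKM, lay above them in each T2Plus sample. The sisters' limma differences, at adjusted p of 0.350 and 0.157, did not pass. TRINITY_DN32738_c0_g1 was uneven within each line, at 7.04, 21.1 and 7.30 FPKM against 10.03, 1.41 and 6.63 FPKM, beside a member TRINITY_DN32738_c0_g2 at 7.68, 9.19 and 6.62 FPKM. The component of TRINITY_DN39991_c0_g6, a member at 40.6, 28.8 and 26.7 FPKM, held TRINITY_DN39991_c0_g1, at 0, 16.7 and 5.79 against 0, 17.5 and 33.4 FPKM, and TRINITY_DN39991_c0_g3, at 6.67, 1.88 and 3.15 against 2.62, 1.24 and 1.16 FPKM. Neither passed the test, with adjusted p of 0.777 and 0.348 by limma.

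**Figure D5:**
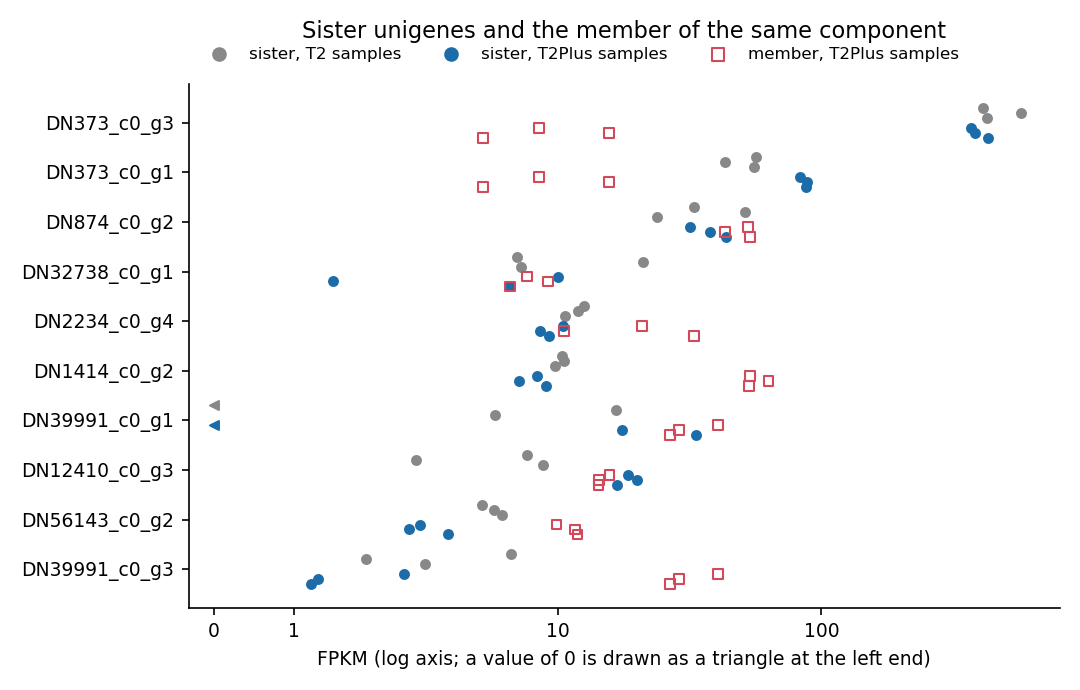
The 10 sister unigenes with the highest mean in the T2 line, 1 row each, with their FPKM in the T2 samples (grey) and the T2Plus samples (blue), and the member of the same component in the T2Plus samples (red squares), on a log axis where a value of 0 is a triangle at the left end. Sisters at several FPKM in the T2 line, such as TRINITY_DN874_c0_g2 and TRINITY_DN1414_c0_g2, stand beside members that were at 0 there.

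A single isoform row stood for 253 members. The other 9 had 2 rows (3.4%), beside 4.2% of all unigenes with more than 1 row. Of these 9 members, 4 had both rows above 0. In TRINITY_DN26659_c0_g1 the 2 rows alternated, with i10 at 9.45, 0 and 13.5 FPKM and i3 at 0, 10.9 and 3.67 FPKM, so neither row alone would have met the rule. In TRINITY_DN108885_c0_g1, i2 was present in every T2Plus sample at 5.25, 6.68 and 14.1 FPKM and i1 at 7.60, 4.78 and 0 FPKM. The main row was clear in the remaining pair, with i1 of TRINITY_DN27526_c0_g1 at 9.24, 5.01 and 6.38 FPKM and i3 of TRINITY_DN64139_c0_g1 at 22.8, 25.3 and 14.2 FPKM.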

How the data were processed

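RNA-seq of seedlings of the T2 and T2Plus lines was analysed, with 3 samples a line. The submitters' processing notes name FastQC 0.11.5 and Trimmomatic 0.36 for the reads. After assembly with Trinity, the authors deposited 1 FPKM value per isoform and sample, from RSEM with TMM scaling (versions not given in the sources used here). Calling them FPKM follows the paper, but the file does not settle whether they are FPKM or TPM, and every level above has that limit. An exact 0 can be a failed estimate, so such unigenes are called listed at 0, with no fold change. The table holds 65535 isoform rows, a part of the assembly, so a component can lack unigenes. No value column was left unmapped.

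Isoform values were summed per unigene. The members, the lists and the rule for named unigenes were chosen with earlier results of these data known. Named unigenes are the 10 members with the highest minimum, those just inside and outside the rule, those in the paper's tables, the 10 sisters with the highest T2 mean with their members, members with 2 isoform rows above 0, and the 3 with the largest and the 3 with the smallest CV; those with high FPKM and few reads, identical values, or a called sister outside the 10 were named after their values were seen. The enrichment lists hold only unigenes the study had called, and role groups were formed by words in the list names.

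The test between the lines was that of limma 3.58.1 (R 4.3.3), with a trend of the variance with the level, on log2(FPKM + 1) of unigenes that reached 1 FPKM in 3 samples or more, and p-values were adjusted by Benjamini and Hochberg. Fold changes on this scale understate those of weak unigenes. Total depth is not in the file, and the paper's counts of clean reads, highest for T2 replicate 2, were not used. The FPKM worth of 1 read was read instead from exactly recurring value pairs, as a curve along the level, and taken as 1 whole read or read pair; reads that RSEM divided between transcripts would not fall on it. A fixed ratio had been planned. The level-dependent curve replaced it after the data were seen. Both steps were also run on simulated data as a check of the code. The simulated reads were whole and none was divided between transcripts, so no result here rests on those runs. Other calculations used Python 3.11.15, numpy 2.4.6, pandas 2.3.3 and matplotlib 3.10.9.

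No unigene sequence is printed, since none was in the files used here.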

Additional observations from a re-analysis of the deposited data

How the results depend on the processing

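The number of members, 262, rested on the rule. It was 693 at 2 FPKM or more in each T2Plus sample and 102 at 10 FPKM. For isoform rows taken singly it was 279, for summed components 245, and with up to 0.1 FPKM allowed in the T2 line 262. Scaling every sample to sum to 1000000 gave 546. The T2Plus samples had summed to 527915 to 535112 FPKM, so scaling raised their values while the limit stayed at 5, which in effect lowered the cut. Leaving out 1 sample in turn gave 313 to 631, with 554, 602 and 631 without T2Plus replicates 1, 2 and 3. The number resolved to 1 to 4 reads, 120, was 118 and 122 at tolerances of 1% and 3%, and 142 and 100 with up to 6 and 3 reads. It was 5 with 1 fixed ratio between samples at every level, the choice first planned, which the curve replaced after the data were seen, and 2.29% of like unigenes were then resolved. The median CV of members was 0.182 to 0.231 with 1 T2Plus sample left out and 0.258 after rescaling, and the SD of log2(FPKM + 1) had a median of 0.333 over members and 0.135 over like unigenes.

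Over all unigenes, 2061 were called higher and 1799 lower in the T2Plus line. These were 753 and 1050 at a mean of at least 5 FPKM, and 1073 and 1142 with no filter. Sisters called higher were 3, and 1 with no filter, 1 with a pseudocount of 0.1 and 5 among the 59 tested under the wider definition by TRINITY_DN number. Leaving out 1 sample gave 1463 to 1947 unigenes called higher, 1270 to 1628 lower and 1 to 3 sisters higher. No sister was called lower in any alternative run. TRINITY_DN12410_c0_g3 lost its call in 9 of 15 alternatives and TRINITY_DN93838_c1_g1 in 7. TRINITY_DN27035_c1_g1 kept its call in 14, but it was at 0 in the T2 line and nothing is read from that. Nor is anything read from the call of TRINITY_DN93838_c1_g1, which passed the filter only with its T2Plus values. The replicate number did not pair the samples. Deviations from the line means correlated at 0.04, -0.03 and -0.07 between samples of the same number, and the replicate block gave 1169 unigenes called higher, 1146 lower and 1 sister higher. The resolved members rest on 3 to 11 reads each over the T2Plus samples.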
